A study of Anas platyrhynchos x Cairina moschata with 205 samples.

Results

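Livers of mule duck embryos, the hybrid of a Muscovy drake and a common duck, were compared at embryonic day 24 (E24) between a group under thermal manipulation (TM, 8 livers) and a control group (8 livers). In the TM group the incubation temperature was raised by 1 °C for part of each day from E13 to E27, and E24 lies 11 days after the start of these daily rises. Whole livers were taken 1 h after the start of the rise of that day, and control livers were taken at the same time from eggs kept at the constant incubation temperature. Each group came from 1 incubator, so temperature and incubator cannot be told apart, and the sex of the embryos was not used here. Of 92 PCR assays, 4 served as references (HPRT1, STAB1, USP9X and luciferase, an RNA added to each sample), which left 88 genes. Genes were described if 6 or more livers of both groups had a value, which holds for 82 of the 88. The whole series holds 205 livers.

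Expression was measured by high-throughput quantitative PCR. The Ct counts the PCR cycles run until the product can be detected, so that a lower Ct means more transcript. The relative expression of a gene is its amount against the reference genes of the same liver, set to the mean of the gene over the trial. It is given on the log2 scale, where a difference of 1 is a doubling or a halving, and levels of different genes cannot be compared on it.

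A rise in temperature unfolds proteins, and cells answer through heat shock factors, which switch on genes of chaperones that refold them. The liver of the bird embryo also handles the lipids taken up from the yolk and sets the local supply of thyroid hormone, through enzymes that activate or destroy it before hatching. The genes of the panel cover these functions, together with autophagy, growth and enzymes that mark chromatin.

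The livers carried the markers of their tissue. ALB, the main plasma protein made by hepatocytes, had a Ct between 6.57 and 7.86 in TM livers and between 6.33 and 7.41 in control livers. None of the 4 hepatocyte markers passed the test between the groups, with a median difference of 0.11. Of the 4 markers of other liver cells, STAB1 (annotated as stabilin 2 in the files) was itself a reference gene, HGF had too few values, and TGFB1 and IL18 did not pass. Each liver had a relative expression for 61 to 87 of the 88 genes. Control replicate 4 stood apart, with a relative expression for 61 genes although it had a Ct for all 88. Its luciferase Ct was 22.9, against 19.9 to 21.2 in the other controls and 20.1 to 22.1 in TM livers. TM replicate 1 had the highest mean reference Ct of the 16 livers, at 20.6. It had a relative expression for 74 genes and a Ct for 86. The 4 reference genes had a mean Ct of 19.6 ± 0.474 (SD, n = 8) in TM livers and 19.3 ± 0.628 in control livers (n = 8, exact two-sided permutation p = 0.217), and none of the 4 passed that test.

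At E24, 7 genes were higher and 1 gene was lower in the TM group at an unadjusted exact two-sided permutation p under 0.05, which is 8 of 82 genes (9.76%, with 8.54% higher and 1.22% lower). Such a threshold lets about 5% of tests pass where there is no difference and values are missing regardless of their size. Of 79 values with a Ct but no ratio, 64 would lie above and 12 below every kept value of their own group. The 5% rate may therefore not hold here. At E12, before the first rise in temperature, it called 6 of 83 genes between the groups. Each exact p given for a gene is of this permutation test. The higher genes were the chaperones HSPA5 and HSP90AA1, the thyroid hormone-inactivating enzyme DIO3, the oxysterol receptor LXRA, the autophagy enzyme ATG3, the acetyltransferase subunit ELP3 and the fatty acid-binding protein FABP4. The lower gene was the co-chaperone DNAJB12. Over all 82 genes, the median difference between TM and control was 0.07, with 47 genes above 0 and 35 below. None of the 82 genes passed the Benjamini-Hochberg correction in limma (0%, smallest adjusted p = 0.205), while 7 had an unadjusted limma p under 0.05. In no gene were the 2 groups separate (0%), so that in each of the 82 at least 1 liver of one group lay within the range of the other. Livers were also centred on the panel, that is on the mean of the 29 genes with a deposited ratio in all 16 livers. Most other genes also had a Ct in all 16 livers but a blank ratio in some. With this centring 12 genes passed (14.6%), of which 5 were higher and 7 lower.

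**Figure D1:**
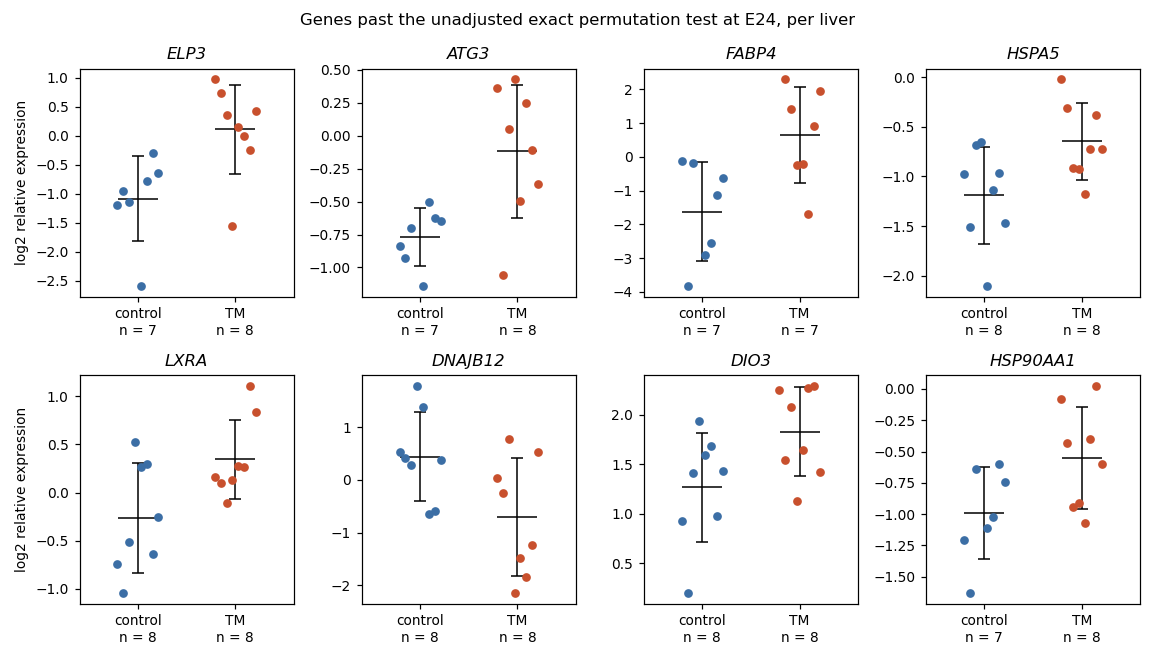
Relative expression at E24 on the log2 scale (y axis, its range set per gene) of the 8 genes past the unadjusted exact permutation test, with 1 point per liver, control in blue and TM in orange, and the mean ± SD in black. The ranges of the groups overlap in all 8 panels, and in ELP3 and ATG3 7 of 8 TM livers lie above the highest control liver with a ratio. In ATG3 the lowest of these 7 is nearly level with that control (−0.499 against −0.501).

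Among the 8 chaperones and co-chaperones tested, 2 were higher in the TM group, 1 was lower and 5 did not pass the test. Over all genes, 8 of 82 were called (9.76%). The list had a median difference of 0.17, against 0.07 over all genes. HSPA5, the chaperone of the endoplasmic reticulum also known as BiP, ranged from −1.18 to −0.02 in TM (median −0.72) and from −2.11 to −0.65 in control (median −1.06). The 3 highest TM livers lay above every control liver, and the 3 lowest control livers below every TM liver. The means were −0.65 ± 0.383 (SD, n = 8) in TM and −1.19 ± 0.488 (n = 8) in control, a difference of 0.54 ± 0.219 (SE) or 1.45-fold (exact permutation p = 0.0250, limma adjusted p = 0.442). This call was lost without control replicate 5 or without TM replicate 1, where p reached 0.0533.

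HSP90AA1, the inducible cytosolic HSP90 that holds heat shock factors inactive in unstressed cells, ranged from −1.07 to 0.02 in TM (median −0.52) and from −1.63 to −0.60 in control (median −1.02). In this gene 5 of 8 TM livers lay above the highest of the 7 control livers with a value. Its means were −0.55 ± 0.406 (n = 8) and −0.99 ± 0.367 (n = 7), a 1.36-fold difference (0.44 ± 0.199 SE, exact permutation p = 0.0468, limma adjusted p = 0.526). The call was lost without control replicates 1, 2, 5 or 6 or TM replicates 1, 2, 6, 7 or 8, with the highest exact p of 0.104 without control replicate 2, and it was also lost when livers were centred on the panel (exact p = 0.0685). It was lost as well when the blank value of control replicate 4 was filled in from its Ct, with either set of reference genes (exact p = 0.219 and 0.203).

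DNAJB12, a membrane-bound co-chaperone that recruits HSP70 to the endoplasmic reticulum, went the other way. TM livers ranged from −2.15 to 0.78 (median −0.74) and control livers from −0.64 to 1.78 (median 0.39). The 4 lowest TM livers lay below every control liver, and 2 TM livers lay above the control median. The mean was −0.70 ± 1.12 (n = 8) in TM and 0.44 ± 0.842 (n = 8) in control, so the TM level was 0.452 times that of control (difference −1.14 ± 0.495 SE, exact permutation p = 0.0385, limma adjusted p = 0.442). Without control replicates 1, 2, 4, 5 or 8 or TM replicates 4, 5, 6 or 7 the call was lost, with an exact p of at most 0.0761, while the difference stayed between −1.36 and −0.94.

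HSPA2, an HSP70 of the cytosol, had a mean of −0.32 ± 0.467 (n = 7) in TM and −0.86 ± 0.575 (n = 8) in control, a difference of 0.54 that did not pass (exact permutation p = 0.0699). It passed when the values were recomputed from all Ct (difference 0.70, exact p = 0.0345). It did not pass with all Ct against the endogenous reference genes alone (0.72, exact p = 0.0503) or centred on the panel (0.42, exact p = 0.102). HSP10, the partner of the mitochondrial chaperonin HSP60, differed by −0.06 (exact p = 0.712). HSP60 itself spread over −6.41 to 0.82 in TM and over −5.35 to 0.09 in control, the control range lying within that of TM. Its difference was −0.36 (exact permutation p = 0.760).

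None of the 3 heat shock factor genes tested passed. HSF2, a heat shock factor active in development, differed by 0.50 (exact permutation p = 0.293). HSF3, a heat shock factor of birds that answers to high temperature in the chicken, differed by −0.18 in the deposited values and by 0.00 with all Ct (exact p = 0.539 and 0.997). HSBP1, which binds and restrains heat shock factors, differed by −0.14 (exact p = 0.710). HSF1, the main heat shock factor of mammals, had a ratio in 5 TM and 7 control livers, under the minimum of 6 per group. Its difference in those livers was 0.93, which passed when 3 livers per group were enough (exact permutation p = 0.0152). Recomputed from the Ct of all 8 livers of each group it was 0.55 and did not pass (exact p = 0.224).

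In the thyroid hormone list, DIO3 was higher in TM and the other 5 genes did not pass, beside 8 of 82 called over all genes (9.76%). DIO3, the deiodinase that turns T4 and T3 into inactive forms, was measured in all 16 livers. It ranged from 1.13 to 2.29 in TM (median 1.86) and from 0.20 to 1.93 in control (median 1.42), and 7 of 8 TM livers lay above the control median. The means were 1.83 ± 0.450 and 1.27 ± 0.549 (n = 8 each), a 1.47-fold difference (0.56 ± 0.251 SE, exact permutation p = 0.0406, limma adjusted p = 0.505). Leaving out control replicates 1, 2 or 7 or TM replicates 1, 3, 6 or 7 ended the call, with the highest p of 0.0802 without control replicate 2. SLC16A10, a transporter of aromatic amino acids and thyroid hormones, differed by 0.56 with a wider spread, from −0.98 to 0.71 in TM and from −1.79 to 0.66 in control (exact p = 0.143). NCOR, the co-repressor bound by thyroid hormone receptors, had a mean of 0.49 ± 0.577 (n = 8) in TM and 0.02 ± 0.135 (n = 6) in control (exact permutation p = 0.0736). DIO1, the deiodinase that makes T3 in the liver, differed by −0.20 (exact p = 0.564), THRB, the beta receptor, by 0.27 (exact p = 0.681), and JMJD1C, a demethylase-like co-regulator, by 0.11 in the deposited values and by −0.11 when livers were centred on the panel (exact p = 0.565 in the former). The list had a median difference of 0.37, with 5 of 6 genes above 0, or 4 of 6 when centred on the panel.

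Of the 3 lipid-sensing transcription factors, LXRA was higher in TM, beside 8 of 82 called over all genes (9.76%). This nuclear receptor is activated by oxysterols and switches on cholesterol export and fatty acid synthesis. TM livers ranged from −0.11 to 1.11 (median 0.22) and control livers from −1.05 to 0.52 (median −0.39). All 8 TM livers lay above the control median, and 5 of 8 control livers lay below every TM liver. With means of 0.35 ± 0.412 and −0.26 ± 0.570 (n = 8 each), the difference was 0.61 ± 0.249 (SE) or 1.53-fold (exact permutation p = 0.0284, limma adjusted p = 0.442). The call was lost without control replicates 1, 2 or 7 or TM replicates 7 or 8, with a p of at most 0.0573. PPARA, the receptor that drives fatty acid oxidation, differed by 0.21 (exact p = 0.162) and by −0.00 when centred on the panel. ChREBP, the glucose-sensing factor, differed by −0.14 (exact p = 0.704).

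Genes of fatty acid synthesis are known targets of LXRA and ChREBP in mammals. Of 9 fatty acid and glycerolipid synthesis genes tested, none passed the test, and their median difference was −0.13, or 0.06 with all Ct. ACLY, which makes cytosolic acetyl-CoA, ranged from −1.57 to −0.32 in TM and from −2.15 to −0.17 in control (difference 0.56, exact permutation p = 0.0780). ACC, which makes malonyl-CoA from it, differed by 0.64 (exact p = 0.101), while FASN, the fatty acid synthase, differed by −0.13 (exact p = 0.657). CEPT1, which makes phosphatidylcholine and phosphatidylethanolamine, ranged from −1.57 to −0.06 in TM and from −0.89 to 0.32 in control, a difference of −0.52 (exact p = 0.0636). Centred on the panel it passed, at −0.63 (exact p = 0.0190).

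None of 8 genes of fatty acid activation and oxidation passed either. ACSL1, which links fatty acids to coenzyme A, differed by −0.04 (exact p = 0.840). ACAT1, the mitochondrial acetoacetyl-CoA thiolase, had a mean of −0.28 ± 0.462 (n = 8) in TM and 0.06 ± 0.343 (n = 7) in control (exact p = 0.132). With livers centred on the panel, ACAT1 was lower in TM by 0.55 (exact p = 0.00482). ALDH3A2, a fatty aldehyde dehydrogenase, had a difference of 1.49 that came with a control range from −8.51 to 0.56 (exact p = 0.222). In the list of lipid transport and storage, none of 5 genes passed. LIPC, the hepatic lipase, differed by 0.27 (exact p = 0.201), and APOB, the protein of very low density lipoproteins, by 0.13 (exact p = 0.503).

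FABP4, which carries fatty acids in adipocytes and macrophages, stood outside the lists and had the widest difference of the 82 genes. The 7 TM livers with a ratio ranged from −1.68 to 2.31 (median 0.90) and the 7 control livers from −3.84 to −0.13 (median −1.13). The 4 highest TM livers lay above every control liver, and the 3 lowest control livers below every TM liver. The means were 0.64 ± 1.42 in TM and −1.62 ± 1.47 in control, a difference of 2.26 ± 0.772 (SE) or 4.80-fold (exact permutation p = 0.0175, limma adjusted p = 0.205). The call was kept in all 14 fits that left out 1 of these livers (p at most 0.0338). PPARG, the receptor that switches on FABP4 in adipocytes, did not pass (difference −1.17, exact p = 0.592), and 1 TM liver was at −9.77, far below the others. TLR4, a receptor of macrophages, had values in 5 livers of each group, under the minimum of 6. The part of adipocytes or macrophages in the FABP4 level was not tested, and in whole livers more cells of a type and more transcript per cell cannot be told apart.

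Among 5 autophagy genes tested, ATG3 was higher in TM and 4 did not pass, beside 8 of 82 called over all genes (9.76%). ATG3 is the enzyme that joins LC3 to the lipid of the growing autophagosome. TM livers ranged from −1.06 to 0.43 (median −0.03) and the 7 control livers with a ratio from −1.14 to −0.50 (median −0.70). Only TM replicate 2 lay within or below the range of these controls. TM replicate 5 lay nearly level with the highest of them, at −0.499 against −0.501. Control replicate 4 had a blank ratio, and its value from the Ct was 0.16. The means were −0.12 ± 0.505 (n = 8) and −0.77 ± 0.218 (n = 7), a 1.57-fold difference (0.65 ± 0.196 SE, exact permutation p = 0.00979, limma adjusted p = 0.294). With livers centred on the panel, the difference of 0.44 did not pass (exact p = 0.0900). BNIP3, a receptor of mitophagy, differed by −0.57 (exact p = 0.146), AMBRA1, a scaffold that starts autophagy, by 0.25 (exact p = 0.402), and ATG4B, the protease that trims LC3, by 0.14 (exact p = 0.728).

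ELP3 was the gene with the smallest p. It is the catalytic subunit of the Elongator complex, known for acetyltransferase activity and for the modification of tRNA. TM livers ranged from −1.55 to 0.98 (median 0.26) and the 7 control livers with a ratio from −2.60 to −0.30 (median −0.96). All TM livers except replicate 4 lay above the highest of these controls. The means were 0.11 ± 0.774 (n = 8) and −1.09 ± 0.731 (n = 7), a 2.29-fold difference (1.20 ± 0.389 SE, exact permutation p = 0.00855, limma adjusted p = 0.205). The eighth control liver had a Ct but no ratio, and with its value filled in ELP3 did not pass (exact p = 0.0816). Both ATG3 and ELP3 kept the call in each of the 15 fits that left out 1 liver with a ratio (p at most 0.0213 and 0.0200). Control replicate 4 was blank for both genes and absent from all these fits, so they cannot show what its value would change. None of the other 9 genes of chromatin and DNA methylation passed, and the list had a median difference of 0.06, or −0.03 with all Ct. RBBP4, a histone-binding subunit of several chromatin complexes, differed by 0.22 (exact p = 0.203). The DNA methyltransferase DNMT3A differed by −0.41 (exact p = 0.257), and TET2, which oxidises methylated cytosine, by 0.45 (exact p = 0.269).

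No gene passed in the other 3 lists. The 9 genes of glucose transport and glycolysis had a median difference of −0.26, with 5 of 9 below 0. GAPDH had a mean of 0.09 ± 0.570 (n = 8) in TM and 0.37 ± 0.241 (n = 7) in control (exact p = 0.257), and ENO1, the enolase, −0.00 ± 0.272 (n = 7) and 0.26 ± 0.522 (n = 8, exact permutation p = 0.259). Centred on the panel, both were lower in TM, by 0.49 (exact p = 0.0326) and 0.31 (exact p = 0.0200). In the list of other stress genes and cytokines, TGFB1, the growth factor of stellate cell activation, differed by 0.76 with SDs of 1.39 and 1.33 (exact p = 0.274), and TIA1, a protein of stress granules, by 0.27 (exact p = 0.330). Of the growth genes, TYMS, the thymidylate synthase of dividing cells, differed by 0.09, and by −0.02 when centred on the panel (exact p = 0.732 in the former).

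**Figure D2:**
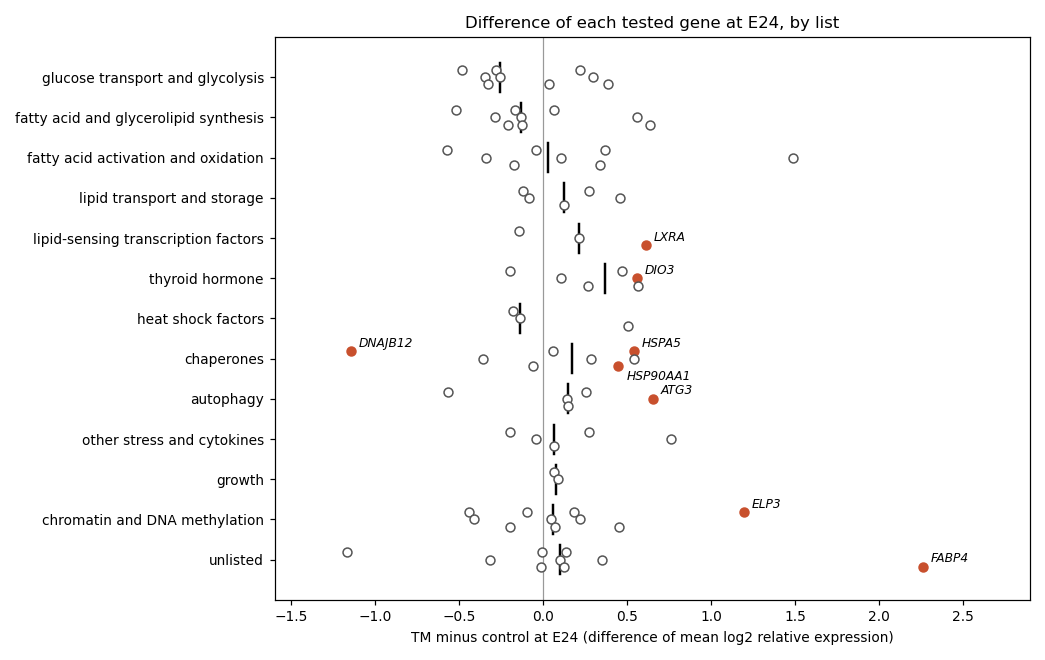
Difference between the TM and control means at E24 (x axis, log2) of the 82 tested genes, with 1 circle per gene, by list (y axis), and the median of each list as a black bar. Filled circles are the 8 genes past the unadjusted exact permutation test, which lie in 5 lists and among the unlisted genes, and no list holds more than 3 of them.

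In 4 of the 8 called genes, the value of a liver had been left blank in the deposited ratios although a Ct existed. Over the 88 genes there were 79 such blanks, of which 64 would lie above and 12 below every kept value of their own group. Control replicate 4 held 27 of them, all above the other controls. Its value computed from the Ct was 1.36 for ELP3, higher than in any of the 8 TM livers. For ATG3 it was 0.16, for HSP90AA1 0.13 and for FABP4 1.43. The blank FABP4 value of TM replicate 1 was 4.26, above the other TM livers. With these values filled in, ELP3 differed by 0.89 (exact permutation p = 0.0816) and HSP90AA1 by 0.30 (exact p = 0.219), and neither passed. ATG3 differed by 0.54 (exact p = 0.0354) and FABP4 by 2.33 (exact p = 0.0227), and both still passed. The other 4 called genes had no blank at E24. The rule by which the values were left blank was not given in the sources used here.

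The scaling of the livers bore on the calls as well. With all Ct, 7 of 86 genes passed (8.14%), and with all Ct against the 3 endogenous reference genes alone 6 of 86 (6.98%), of which 5 were higher. Both settings fill in the blanks, and leaving out luciferase moved the differences by a median of 0.02 (−0.01 to 0.08) against all Ct with the 4 references. Centring on the panel moved the median difference of all genes by −0.12, from 0.07 to −0.05. The 7 genes that were then lower were ACAT1, ALDH7A1, CEPT1, DNAJB12, EIF3, ENO1 and GAPDH. ALDH7A1, an aldehyde dehydrogenase, differed by −0.17 before and by −0.24 after (exact p = 0.408 and 0.0436), and EIF3, a translation initiation factor assayed as a candidate reference, by −0.32 and −0.45 (exact p = 0.110 and 0.0203). DIO3, DNAJB12, FABP4, HSPA5 and LXRA passed under all 4 scalings, and the 8 called genes kept their direction in all of them. DIO3, DNAJB12, HSPA5 and LXRA had no blank, so all Ct only returned their deposited values. They are also among the 29 genes on which the livers were centred. For these genes the scalings are therefore not separate checks.

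**Figure D3:**
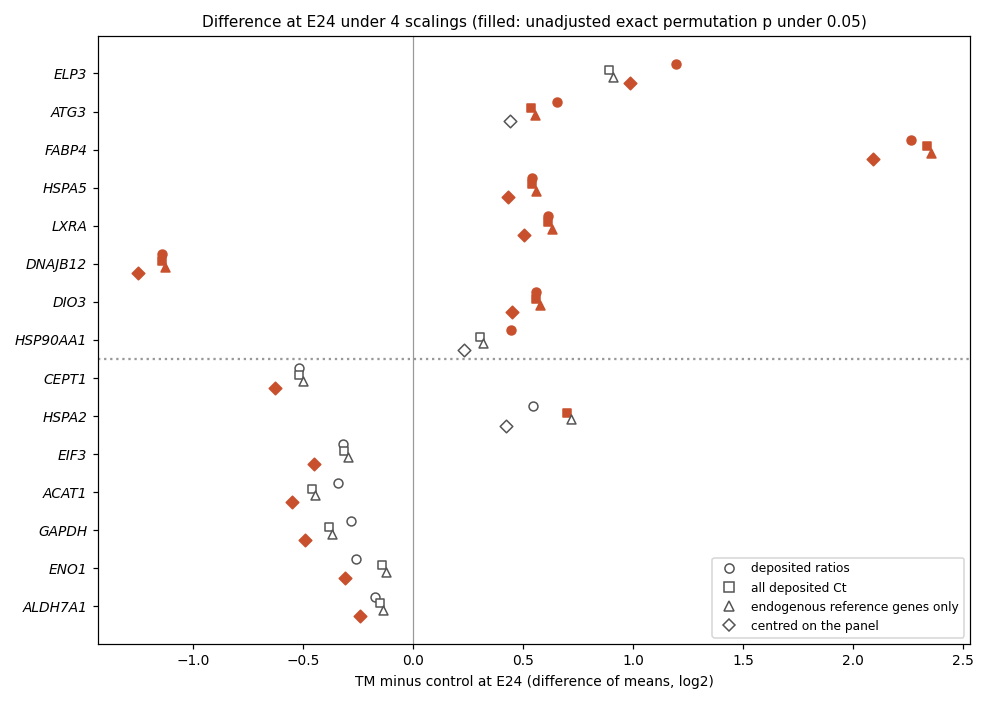
Difference between the TM and control means at E24 (x axis, log2) under 4 scalings, marked by shape (blanks are filled in with all Ct and with the endogenous references), for the 8 called genes (above the dotted line) and 7 genes that passed under another scaling only (below it). Filled marks have an unadjusted exact permutation p under 0.05, and all 4 marks are filled in FABP4, HSPA5, LXRA, DNAJB12 and DIO3.

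The livers at the ends of the ranges recurred from gene to gene. Control replicate 2 was the lowest control in 4 of the 8 called genes (DIO3, FABP4, HSP90AA1 and LXRA), and control replicate 5 in 3 (ATG3, ELP3 and HSPA5). Control replicate 2 also had the lowest panel mean of the 16 livers, at −0.95, against a median of −0.35. The highest panel mean was that of control replicate 4, at 0.32. Control replicate 4 was the highest control in the 4 called genes in which it had a ratio. In the TM group, replicate 4 was the lowest in DIO3, DNAJB12 and ELP3 and replicate 7 the highest in DIO3, HSP90AA1 and LXRA. Without control replicate 2, 4 genes passed the unadjusted test (ATG3, ELP3, FABP4 and HSPA5), and without control replicate 1, 5. Without TM replicate 4, 11 passed, and ELP3 alone passed limma's correction (adjusted p = 0.0264). TM replicate 4 was the only TM liver not above the highest control ratio of ELP3. The ELP3 ratio of control replicate 4 was blank in that fit too, and its value from the Ct lay above every TM liver.

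The other days of the trial show where E24 lies in the course of these genes. The same test called 6 of 83 genes at E12, before the first rise in temperature. It called 14 of 83 at E16, 8 of 82 at E20, 8 of 84 at E28 and 8 of 86 at E30 (hatch). E16 had only 5 control livers, so genes with 4 control values were tested there, under the minimum of 6 used at E24. At E16 all 14 were higher in TM, and the median difference over the 83 genes was 0.53. ELP3 was opposite at E20. There, TM livers ranged from −1.75 to 0.09 and control livers from −0.17 to 0.98 (difference −1.28, exact permutation p = 0.000932). The TM effect on ELP3 changed by 2.47 between E20 and E24 (limma interaction over 73 genes, adjusted p = 0.00369, and 0.00041 to 0.0367 over the other settings), and ELP3 was the only gene to change between these days with the deposited ratios (1.37%). Against E12, E28 and E30, no gene of the 73 passed (0%), and 5, 5 and 8 had an unadjusted p under 0.05. For ELP3 the change of effect was 0.92 against E12 (adjusted p = 0.697), 0.48 against E16 (0.767), 1.17 against E28 (0.600) and 1.76 against E30 (0.171). Against E16, CPT1A, the enzyme that brings fatty acids into mitochondria, alone passed (1.37%), with a change of −2.69 (adjusted p = 0.00503), and it did not pass with the other 3 scalings. Its own difference at E24 was 0.10 (exact p = 0.751).

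HSPA5 and HSP90AA1 ran low in both groups at E20 and E24, and their TM means were above control on both days. HSPA5 differed by 0.37 at E20 (exact permutation p = 0.0303) and HSP90AA1 by 0.44 (exact p = 0.00699). At E30 HSP90AA1 was lower in TM, by −0.42 (exact p = 0.0490). The change of the HSP90AA1 effect from E24 to E30 did not pass (0.86, limma adjusted p = 0.171), nor did that of HSPA5 (0.80, adjusted p = 0.317).

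DIO3 stayed between 1.03 and 2.21 on average from E12 to E24 in both groups and was far lower afterwards. At E28 its mean was −2.33 in TM and −1.93 in control, and at E30 −6.71 ± 0.532 (n = 4) and −4.70 ± 1.46 (n = 7). The difference at E16 was 0.80 (n = 7 and 4, exact permutation p = 0.00909), beside the median of 0.53 over all genes of that day. At E30 the difference was −2.02 (exact p = 0.0303), opposite to E24. With a ratio in only 4 TM livers at E30, DIO3 did not enter the interaction fit for genes with at least 6 livers. With at least 3 livers, its effect differed by 2.58 between E24 and E30 (limma adjusted p = 0.00183).

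FABP4 and LXRA were higher in TM at E28 too, by 1.86 (exact permutation p = 0.0239, n = 6 and 7) and by 0.64 (exact p = 0.0476). On the other days FABP4 did not pass (exact permutation p = 0.357 to 0.941). It differed by 0.08 at E12, 1.70 at E16 (n = 5 and 3), 0.31 at E20 (n = 4 and 6) and −0.59 at E30. FABP4 had too few livers for the interaction fit of genes with at least 6 livers. With at least 3 livers, its effect at E24 exceeded that of each other day by 0.41 to 2.85. None of these changes passed (limma adjusted p = 0.336 to 0.967). At E20 LXRA differed by −0.47 (exact p = 0.171), and its change from E20 to E24 was 1.08 (limma adjusted p = 0.259). DNAJB12 had been higher in TM at E12, before the first rise in temperature, with a mean of 0.60 ± 0.855 (n = 8) against −0.65 ± 1.18 (n = 7), a difference of 1.24 (exact permutation p = 0.0357) and opposite in direction to E24. Its change from E12 to E24 did not pass (−2.39, adjusted p = 0.605). ATG3 had no difference past the test on any other day, with values from −0.02 to 0.34 (exact p = 0.220 to 0.962). Its change of effect between E24 and each other day did not pass either (0.31 to 0.68, limma adjusted p = 0.556 to 0.885).

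**Figure D4:**
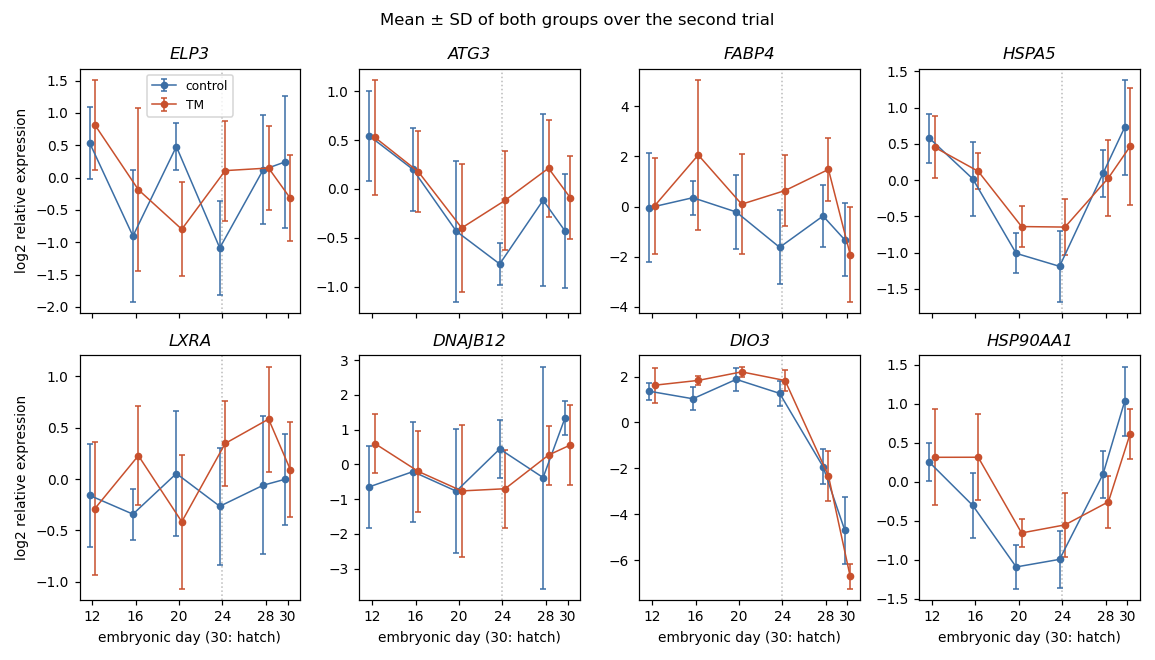
Mean ± SD of the log2 relative expression (y axis, its range set per gene) of the 8 called genes in the control (blue) and TM (orange) groups by embryonic day (x axis, hatch at 30), with E24 at the dotted line. ELP3 is lower in TM at E20 and higher at E24, and DIO3 drops in both groups after E24, to −4.70 in control and −6.71 in TM at hatch.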

How the data were processed

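Relative expression ratios were deposited by the authors as 2 to the power of −ΔΔCt, against the geometric mean Ct of HPRT1, luciferase, STAB1 and USP9X in each liver and the mean ΔCt of the gene over the second trial. Recomputing them from the Ct that the authors deposited as exported scores of the instrument gave the same values (7969 values, largest difference 1.46e-06 on the log2 scale). The 79 blank ratios with a Ct were left blank in the main analysis. R 3.6.2 is named in the submitters' processing notes.

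The log2 of each ratio was taken, with no pseudocount. Each gene with 6 or more livers in both groups was compared between TM and control by exact two-sided permutation of the means (unadjusted p under 0.05, the threshold of the study) and by limma, with Benjamini-Hochberg adjustment over 82 genes. Interactions came from one limma fit of the 6 days and needed 6 livers per group on every day (4 in the control group of E16). Genes were grouped in 12 lists, and 11 of the 88 were in none. Genes were named when called under any scaling, or with the smallest p or the lowest Ct of their list. Others were named after their values were seen. The members and lists were chosen with earlier results of these data known.

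Alternatives were all Ct (blanks filled in), all Ct against the 3 endogenous reference genes, and centring on the panel. In the interaction fit each day, E24 included, was centred on genes missing in at most 2 livers of that day. Further alternatives were other minimum numbers of livers, removal of genes whose mean Ct exceeded 24, and a block for the replicate number. Other tests were also run, and each liver was left out in turn. Control replicate 4 left out together with the endogenous references, and all Ct with centring on the panel, were added after seeing the data. The tests were checked on simulated data in which each gene was drawn independently. Shifts shared by the genes of a liver were not simulated, so the count of called genes was not checked under them. Python 3.11.15 (numpy 2.4.6, pandas 2.3.3, scipy 1.17.1, matplotlib 3.10.9) and R 4.3.3 (limma 3.58.1) were used. Primer sequences and a genome were not used here. The depth of a PCR assay is not a read count, and the number of livers limits the precision.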

Additional observations from a re-analysis of the deposited data

Results flagged for a closer look

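ELP3 in control replicate 5 was at −2.60, with the nearest control liver at −1.19, a gap of 0.612 of the range of the 7 livers. Without that liver ELP3 still passed the unadjusted test (exact permutation p = 0.0200). ACSL1 in TM replicate 7 was at 0.859, with the nearest TM liver at 0.208 (gap 0.535 of the range, 8 livers). These were 2 of 54 groups examined for such a gap. Chance gives about 1 in 20 where no values are left blank. Most blanks here would lie outside the kept values of their group, so that rate may not hold.

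The TM effect on ELP3 differed between days. It was −1.28 at E20 and 1.20 at E24, a change of 2.47 (limma interaction, adjusted p = 0.00369). The change also passed with all deposited Ct, although the difference at E24 alone did not (exact permutation p = 0.0816).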

How the results depend on the processing

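The count of 8 genes past the exact permutation test was 4 among the 29 genes with all 8 livers of each group and 0 after the Benjamini-Hochberg correction of the permutation p. Leaving out 1 liver at a time gave 4 to 11 genes, and 0 to 1 past limma's adjusted p. The other settings gave 6 to 12 genes: 9 with at least 3 livers per group (HSF1 added), 7 by limma's unadjusted p and 7 by the methods' test, which called NCOR and not DNAJB12 or LXRA. With the replicate block, as an exact sign-flip permutation test of same-numbered pairs, 7 genes passed, among them CEPT1 but not DIO3, DNAJB12, HSP90AA1 or LXRA. In limma with the block, DNAJB12 and LXRA had an unadjusted p under 0.05 and DIO3 and HSP90AA1 did not. The sample labels do not say whether same-numbered livers form pairs. Of 8 same-numbered pairs, 4 correlated over 0.1 (r from −0.43 to 0.64), and 2 of 8 livers correlated best with their own number. These few correlations cannot decide whether the livers were paired. Of the settings chosen after seeing the data, leaving out control replicate 4 with the endogenous references gave 7 genes, and all Ct centred on the panel gave 11, of which 5 were higher.

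For the change of the TM effect from E16, the count of 1 became 0 with all deposited Ct, with all Ct against the endogenous references and with centring on the panel. From E20, it became 2 with the endogenous references (ELP3 and BNIP3) and 2 with centring on the panel (ELP3 and LXRA). From E30, it became 1 with at least 3 livers per group and day (DIO3). The causes were not tested. Late Ct values and 8 livers per group limit the precision.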
